A study of Rattus norvegicus with 35 samples.

Results

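Transcripts of fatty acid beta-oxidation and ketone body metabolism were followed in primary rat hepatocytes, cultured cells isolated from liver, that had been exposed for 72 h to 1 of 3 triazole fungicides. The genes were 36 listed enzymes, carriers and peroxisomal proteins of these pathways, chosen by name. Earlier results of these data were known when the list was made. All 36 were annotated to a probe set, a group of short probes for 1 transcript or a few close relatives, of the 31099 on the Affymetrix rat array. A probe set naming that gene alone was found for 35 of them, and 34 lay high enough above the array's median to be tested, 23 mitochondrial and 11 peroxisomal, among 10490 genes tested in all. Acaa1a, a peroxisomal thiolase, was read only by a probe set shared with Acaa1b, and the own probe set of Acot1, a cytosolic thioesterase, lay above the median in 0 of 35 arrays.

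Cells received propiconazole at 10, 30 or 100 uM, myclobutanil at 10, 30 or 100 uM, triadimefon at 10, 30 or 100 uM, phenobarbital at 200 uM, PCN at 30 uM, or the vehicle DMSO at 0.1%. Beside the triazole ring propiconazole carries a dioxolane ring, myclobutanil a nitrile group and triadimefon a ketone. Phenobarbital, an activator of the receptor CAR, and PCN, a ligand of rat PXR, were the positive controls of the series. The labels carry the codes Rs256, Rs293 and Rs304, and a group comprised 1 array per code (n = 3), apart from PCN, which lacked Rs256 (n = 2). The series' design text calls the arrays biological replicates, while the labels used here say neither what a code marks nor the strain, sex or number of the donor animals, so the p-values measure the spread between these arrays.

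Beta-oxidation shortens fatty acids by acetyl units in repeated rounds of dehydrogenation, hydration, a second dehydrogenation and thiolysis. Mitochondria burn most long-chain fatty acids, which enter as carnitine esters through Cpt1a, Slc25a20 and Cpt2, and liver mitochondria turn the acetyl-CoA that is left over into ketone bodies. Peroxisomes shorten very long and branched chains with enzymes of their own, and the nuclear receptor PPARalpha drives genes of both compartments in rodent liver.

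Values are on the authors' log scale, whose base is not given in the sources used here, after quantile normalization, and a change is a difference in these units and no fold. If the added control transcripts bioC, bioD and cre were at their standard 5, 25 and 100 pM, a doubling was worth 0.487 units on average over arrays (range 0.437 to 0.525). A gene was called when limma's p, adjusted by Benjamini and Hochberg over the 10490 genes, lay below 0.05. Across arrays the deposited median ran between -0.03 and 0.02 and the SD between 0.646 and 0.941, with the highest SD on the propiconazole 30 uM array of Rs293. Hepatocyte markers read as labelled: of 18 listed 16 were tested, with Alb, Apoa1 and Ttr among the brightest probe sets. Cyp2e1 and Pck1 lay near the middle of all probe sets other than controls, at the 57.8th and 52.5th percentile. Most endothelial markers (10 of 12) and 7 of 11 cholangiocyte markers did not enter the test. Tested markers of other cell types ran from percentile 27.2 (Dcn, stellate) to 98.6 (Vim, stellate). Among them Cd14 and Lyz2 (macrophage) both lay at 89.7 and Epcam (cholangiocyte) at 96.6.

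Propiconazole at 100 uM lowered 26 of the 34 tested members, 16 of 23 mitochondrial and 10 of 11 peroxisomal, and raised none. Of all genes 5.6% were called lower, 6.37% higher and 12% in either direction. The median change of the tested members was -0.48 (range -1.54 to -0.05), and 34 of 34 changes lay below zero, against a median of 0.01 over all genes and 47.0% of them below zero. Taken within each code, the members' median difference from the DMSO array was -0.52 in Rs256, -0.36 in Rs293 and -0.50 in Rs304. Myclobutanil at 100 uM lowered 9 members, all mitochondrial (0.572% of all genes were called lower, 0.639% higher and 1.21% in either direction), and triadimefon lowered 6, of them 5 mitochondrial (0.963% and 1.83%). Their median changes were -0.26 and -0.22. With the code as a replicate block the counts were 30 for propiconazole, 22 for myclobutanil and 20 for triadimefon, beside 13.6%, 4.87% and 5.65% of all genes called lower.

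**Figure D1:**
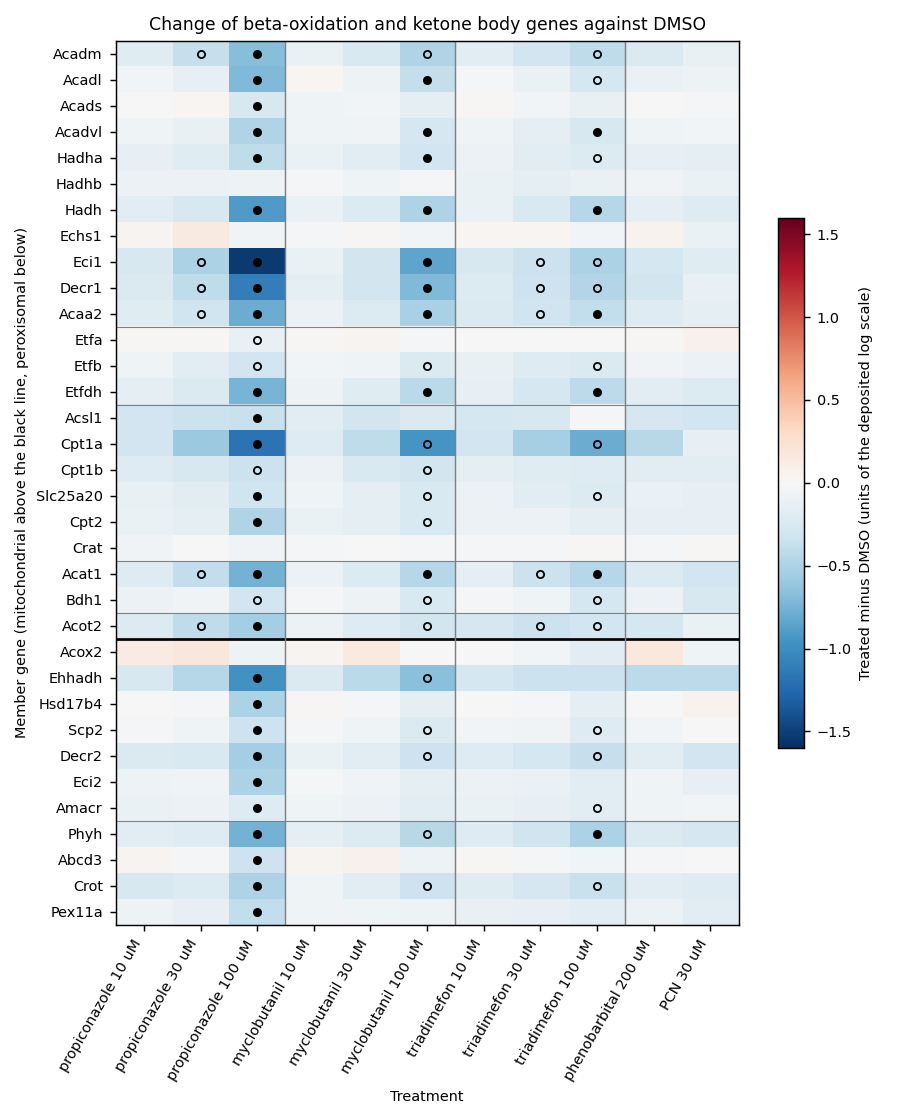
Change of the 34 tested members against DMSO in the 11 treatments, as mean differences in units of the deposited log scale (colour; blue is lower than DMSO). Filled circles mark calls at an adjusted p below 0.05, and open circles mark calls made with the replicate block alone. Filled circles number 26 for propiconazole, 9 for myclobutanil and 6 for triadimefon at 100 uM, and no treatment at a lower dose, phenobarbital or PCN has one.

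Among the enzymes of the mitochondrial spiral 9 of 11 were called lower with propiconazole (median -0.68), 7 with myclobutanil (median -0.38) and 3 with triadimefon (median -0.28). Hadh, the short- and medium-chain hydroxyacyl-CoA dehydrogenase, is given with its values in the order Rs256, Rs293 and Rs304, as are all triplets that follow. It read 1.56, 1.94 and 1.77 with propiconazole at 100 uM, 2.15, 2.29 and 2.07 with myclobutanil, 2.08, 2.32 and 2.23 with triadimefon, and 2.68, 2.67 and 2.64 in DMSO. All DMSO arrays lay above all triazole arrays, the propiconazole arrays lay below the rest, and the other two triazoles overlapped. Arrays are printed mostly for called members, so here and below a lack of overlap is no separate evidence. The changes were -0.91 with propiconazole (SE 0.0775, adjusted p = 1.74e-08), -0.50 with myclobutanil (adjusted p = 0.00105) and -0.45 with triadimefon (adjusted p = 0.00249).

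Acaa2, a mitochondrial thiolase, stood at 2.18, 2.07 and 2.07 with propiconazole, 2.40, 2.31 and 2.44 with myclobutanil, 2.57, 2.44 and 2.54 with triadimefon, and 2.78, 2.90 and 3.03 in DMSO. Its DMSO arrays again lay above every triazole array, and the propiconazole arrays below those of the other triazoles. It fell by 0.80 with propiconazole (SE 0.0733, adjusted p = 4.88e-08), by 0.52 with myclobutanil (adjusted p = 0.000358) and by 0.39 with triadimefon (adjusted p = 0.00592). A second, dimmer Acaa2 probe set was not called, at -0.13 with propiconazole (adjusted p = 0.243 in the fit on probe sets).

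Eci1, an isomerase needed for unsaturated fatty acids, had the widest change of the members. It measured 1.27, 1.23 and 1.49 with propiconazole, 1.80, 2.04 and 2.21 with myclobutanil, 2.20, 2.38 and 2.51 with triadimefon, and 2.65, 2.91 and 3.05 in DMSO. Within each code the order was propiconazole, myclobutanil, triadimefon and DMSO, low to high. Propiconazole changed it by -1.54 (SE 0.147, adjusted p = 1.14e-07) and myclobutanil by -0.85 (adjusted p = 0.00306). With triadimefon the change of -0.51 was called only with the block (adjusted p = 0.0804, and 0.000172 with the block).

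Acadl, the long-chain acyl-CoA dehydrogenase of the first step, read 2.20, 2.18 and 2.28 with propiconazole, 2.45, 2.55 and 2.63 with myclobutanil, and 2.84, 3.03 and 2.90 in DMSO. The 3 groups did not overlap. Its changes were -0.71 with propiconazole (SE 0.0883, adjusted p = 6.96e-06), -0.38 with myclobutanil (adjusted p = 0.0312) and -0.28 with triadimefon (adjusted p = 0.108, and 0.000335 with the block). Decr1, a reductase for polyunsaturated chains, fell by 1.11 with propiconazole and by 0.70 with myclobutanil. Acadvl, the very-long-chain dehydrogenase, fell with propiconazole, myclobutanil and triadimefon, by 0.48, 0.27 and 0.25. Acadm and Acads, the medium- and short-chain dehydrogenases, were called with propiconazole alone at -0.68 and -0.26. With the block Acadm was called for all 3 triazoles and Acads still for propiconazole alone.

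The trifunctional protein, which carries out the last steps on long chains, joins subunits from Hadha and Hadhb, and these genes read apart. Hadha stood at 1.60, 1.77 and 1.62 with propiconazole, 1.84, 1.71 and 1.75 with myclobutanil, 1.83, 1.89 and 1.85 with triadimefon, and 2.14, 2.00 and 2.06 in DMSO. Every triazole array lay below every DMSO array for Hadha, with changes of -0.41 for propiconazole (SE 0.0623, adjusted p = 7.21e-05), -0.30 for myclobutanil (adjusted p = 0.0177) and -0.21 for triadimefon (adjusted p = 0.0804, and 0.0139 with the block). Hadhb stood at 2.53, 2.72 and 2.74 with propiconazole, 2.68, 2.81 and 2.66 with myclobutanil, 2.59, 2.63 and 2.69 with triadimefon, and 2.78, 2.71 and 2.73 in DMSO. Its groups overlapped for propiconazole and myclobutanil, while all triadimefon arrays lay below the lowest DMSO array, and no change was called: -0.08 with propiconazole (95% interval -0.22 to 0.06), -0.03 with myclobutanil (-0.17 to 0.12) and -0.10 with triadimefon (-0.24 to 0.04). Whether the 2 genes changed unequally was not tested. Echs1, the hydratase for short chains, also stayed uncalled, at -0.05 with propiconazole (95% interval -0.29 to 0.19).

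Promoter sequences were taken from RefSeq (rat build GRCr8), which held 32 of the 36 members. The Hadha sequence is shown because Hadha and Hadhb lie head to head with 300 bases between their start sites, so their upstream windows share most of this stretch, and the Acadvl sequence because it held the closest match among the members. The search was for AGGTCA, any 1 base and AGGTCA again, the direct repeat that PPARalpha binds as a partner of RXR, on both strands of the 250 bases before each start site. Capitals mark the closest match, the strands are plus for Hadha (chr6:31907551-31907800) and minus for Acadvl (chr10:55236706-55236955), and both are written 5′ to 3′ towards the gene.
Hadha: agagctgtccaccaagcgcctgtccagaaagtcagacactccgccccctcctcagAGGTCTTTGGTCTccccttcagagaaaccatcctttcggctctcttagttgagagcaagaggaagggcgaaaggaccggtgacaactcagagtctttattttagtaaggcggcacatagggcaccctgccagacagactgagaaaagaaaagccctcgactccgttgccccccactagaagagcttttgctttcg
Acadvl: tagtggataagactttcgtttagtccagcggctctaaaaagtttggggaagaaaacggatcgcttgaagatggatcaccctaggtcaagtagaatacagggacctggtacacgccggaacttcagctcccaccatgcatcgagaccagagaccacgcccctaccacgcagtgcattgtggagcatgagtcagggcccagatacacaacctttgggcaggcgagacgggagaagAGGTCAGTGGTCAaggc
The Acadvl match differed from the repeat in 1 of its 12 fixed letters and ended 4 bases before the start site, and the Hadha match differed in 3 and ended 182 bases before it. Read from the Hadhb side, the same match ended 105 bases before that start site. At most 1 mismatch was found in 1 of 32 member promoters (3.12%) and in 0.368% of all 33469 promoters of the same length. At most 2 mismatches were found in 5 (Acadvl, Amacr, Crat, Echs1 and Etfa; 15.6%) and in 3.15% of all, and at most 3 in 34.4% and 21.4%. Of the 5, Acadvl and Amacr were called lower with propiconazole without the block, and Crat, Echs1 and Etfa were not. With the block Etfa was also called. A match describes letters and shows no binding.

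Electrons from the acyl-CoA dehydrogenases pass through the flavoprotein Etfa and Etfb to the oxidoreductase Etfdh in the inner membrane. Etfdh read 1.04, 1.13 and 1.17 with propiconazole, 1.48, 1.39 and 1.42 with myclobutanil, 1.41, 1.51 and 1.42 with triadimefon, and 1.88, 1.84 and 1.86 in DMSO. The DMSO arrays lay within 0.1 of each other and above all others, the propiconazole arrays were the lowest, and myclobutanil and triadimefon overlapped. Etfdh was called lower with each triazole, by -0.74 (SE 0.0851, adjusted p = 1.99e-06), -0.43 (adjusted p = 0.0131) and -0.41 (adjusted p = 0.0106). Etfa and Etfb were not called: with propiconazole they changed by -0.12 (adjusted p = 0.0877) and -0.31 (adjusted p = 0.059), and both were called with the block (0.0265 and 0.00179).

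Entry into mitochondria begins with Acsl1, which couples fatty acids to coenzyme A, and Cpt1a, the rate-controlling carnitine transferase of the outer membrane. In this group of 6 genes propiconazole lowered Acsl1, Cpt1a, Slc25a20 and Cpt2, and neither of the other triazoles lowered any, although with the block 4 were called for myclobutanil and 2 for triadimefon. Cpt1a measured 0.21, 0.23 and 0.26 with propiconazole, 0.28, 0.51 and 0.62 with myclobutanil, 0.50, 0.62 and 0.77 with triadimefon, and 0.72, 1.80 and 1.73 in DMSO. The DMSO array of Rs256 lay far below the other DMSO arrays and below the highest triadimefon array. Rs256 was also the lowest code for Cpt1a in every treatment group that had it. At 10 uM it read 0.55 with propiconazole, 0.59 with myclobutanil and 0.57 with triadimefon. The change with propiconazole was -1.19 (SE 0.319, adjusted p = 0.0136, and 1.08e-05 with the block). Within codes it was -0.52 in Rs256, -1.57 in Rs293 and -1.47 in Rs304. The values with myclobutanil (-0.95) and triadimefon (-0.79) had adjusted p = 0.187 and 0.265, and 0.00104 and 0.00338 with the block. A second, dimmer Cpt1a probe set changed by -0.39 with propiconazole (adjusted p = 0.102 in the fit on probe sets).

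Cpt2, the inner carnitine transferase, stood at 1.53, 1.64 and 1.56 with propiconazole, against 2.07, 1.95 and 2.16 in DMSO. Those groups did not overlap, and the change was -0.48 (SE 0.0740, adjusted p = 8.21e-05). Slc25a20, the carnitine-acylcarnitine carrier between them, stood at 0.86, 0.98 and 1.13 with propiconazole, against 1.28, 1.33 and 1.32 in DMSO, again without overlap (change -0.32, SE 0.0746, adjusted p = 0.00468). Acsl1 was less clear: it read 1.70, 1.94 and 1.71 with propiconazole, against 1.97, 2.12 and 2.34 in DMSO, a change of -0.36 (SE 0.120) close to the threshold (adjusted p = 0.0494). The highest propiconazole array and the lowest DMSO array lay within 0.1 of each other, and a second Acsl1 probe set changed by -0.24 (adjusted p = 0.251 in the fit on probe sets). Crat, which moves acetyl groups, and Cpt1b, the muscle form of the transferase, were not called without the block. Their changes with propiconazole were -0.06 (95% interval -0.25 to 0.13) and -0.35 (-0.71 to 0.01). Within the 3 codes Cpt1b changed by -0.66 to -0.013.

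Of the ketone body enzymes measured, Acat1, which joins acetyl units to acetoacetyl-CoA, fell with every triazole at 100 uM. It read 1.06, 0.71 and 0.94 with propiconazole, 1.33, 1.07 and 1.19 with myclobutanil, 1.31, 1.12 and 1.17 with triadimefon, and 1.66, 1.66 and 1.65 in DMSO. The DMSO arrays were nearly equal and lay above all others, and within each code the propiconazole array was the lowest. The changes were -0.76 (SE 0.106, adjusted p = 2.65e-05), -0.46 (adjusted p = 0.0312) and -0.46 (adjusted p = 0.0211). Bdh1, which reduces acetoacetate to hydroxybutyrate, had DMSO values of 0.83 in Rs256, 0.42 in Rs293 and 0.07 in Rs304, a wider spread than any of its changes. Its propiconazole values in the same codes were 0.40, 0.05 and -0.04, lower by 0.11 to 0.43 within codes. The change of -0.31 was uncalled (adjusted p = 0.594) and was called with the block (0.000418). Acot2, a mitochondrial thioesterase that frees fatty acids from coenzyme A, read 1.15, 1.30 and 1.42 with propiconazole, against 1.69, 1.82 and 1.99 in DMSO. The groups did not overlap, and the change was -0.54 (SE 0.159, adjusted p = 0.0243). Of its other own probe sets 1 was called, at -0.70 (adjusted p = 0.0205 in the fit on probe sets), and 1 was not, at -0.18 (adjusted p = 0.349), and the probe set shared by Acot2 and Acot1 changed by -0.18 (adjusted p = 0.194). Second probe sets gave -0.27 for Acat1 (adjusted p = 0.00097) and -0.17 for Bdh1 (adjusted p = 0.498) with propiconazole.

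**Figure D2:**
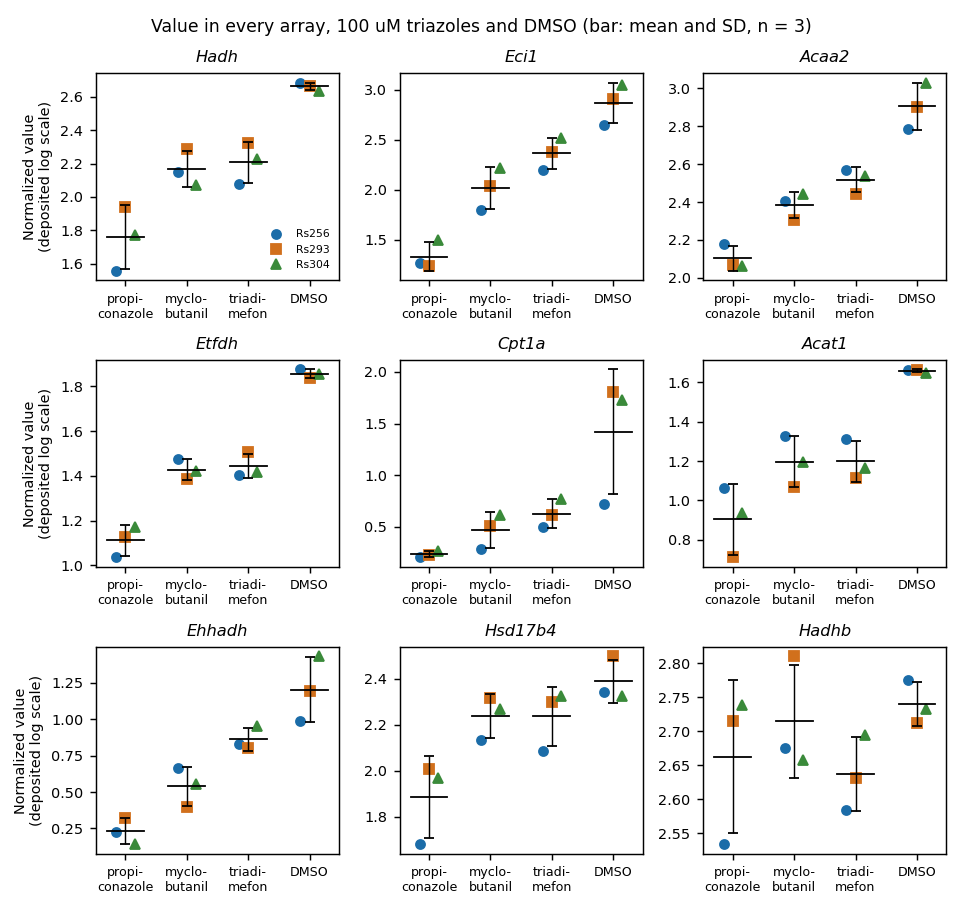
Normalized value (deposited log scale) of 9 members in every array of the 100 uM triazole groups and DMSO, with symbols for the codes and a bar for mean and SD (n = 3). Hadh, Eci1, Acaa2, Etfdh and Acat1 have all DMSO arrays above all triazole arrays, and the Hadhb groups overlap for propiconazole and myclobutanil. The Cpt1a array of DMSO Rs256 lies apart at 0.72, and Rs256 is the lowest code for Cpt1a in each group shown.

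Of the peroxisomal members propiconazole lowered 10 of 11 (median -0.49), myclobutanil 0 of 11 (median -0.17; limma) and triadimefon 1 (median -0.19). With the block 5 of 11 were called for each of the other two triazoles, where 4.87% (myclobutanil) and 5.65% (triadimefon) of all genes were called lower. At an unadjusted p under 0.05 myclobutanil had 6 lower, a count whose share over all genes is not given here. The difference between the compartments was not tested. Hsd17b4, the multifunctional enzyme for branched and very long chains, read 1.68, 2.01 and 1.97 with propiconazole, 2.13, 2.32 and 2.27 with myclobutanil, 2.09, 2.30 and 2.32 with triadimefon, and 2.35, 2.50 and 2.33 in DMSO. The propiconazole arrays lay below the rest, and the other triazoles lay close under DMSO. Its changes were -0.50 (SE 0.0779, adjusted p = 8.09e-05), -0.15 (adjusted p = 0.534) and -0.15 (adjusted p = 0.439).

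Ehhadh, the bifunctional enzyme of the inducible peroxisomal pathway, stood at 0.23, 0.32 and 0.14 with propiconazole, 0.67, 0.40 and 0.56 with myclobutanil, 0.83, 0.81 and 0.95 with triadimefon, and 0.99, 1.19 and 1.43 in DMSO. The 4 groups did not overlap and kept this order. Only the change with propiconazole was called, at -0.97 (SE 0.197, adjusted p = 0.00135). Myclobutanil gave -0.67 (adjusted p = 0.116, and 0.0122 with the block) and triadimefon -0.34 (adjusted p = 0.526, and 0.216 with the block).

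Eci2, an isomerase for unsaturated chains, read 1.46, 1.63 and 1.49 with propiconazole, against 2.14, 2.03 and 1.93 in DMSO. It fell by 0.51 (SE 0.0882, adjusted p = 0.000315) with no overlap, while a probe set shared with Eci3 changed by -0.07 (adjusted p = 0.751). Scp2, a thiolase and sterol carrier, read 2.30, 2.44 and 2.50 with propiconazole, against 2.59, 2.84 and 2.78 in DMSO. It fell by 0.33 (SE 0.0770, adjusted p = 0.00526), and its second probe set by 0.39 (adjusted p = 0.0168). Decr2, the peroxisomal dienoyl-CoA reductase, fell by 0.54 and Amacr, a racemase for branched chains and bile acid intermediates, by 0.20. The probe set shared by Acaa1a and Acaa1b, thiolases of the inducible pathway, fell by 0.77 with propiconazole (SE 0.210, adjusted p = 0.0157 in the fit on probe sets) and stood at -0.46 with myclobutanil (adjusted p = 0.458) and -0.20 with triadimefon (adjusted p = 0.803). Acox2, an oxidase for bile acid intermediates, was not called at -0.08 with propiconazole (95% interval -0.72 to 0.56), and its arrays in DMSO ran between 0.87 and 1.24.

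All 4 tested members of peroxisomal alpha-oxidation, transport and proliferation fell with propiconazole, and Phyh, which starts alpha-oxidation of phytanic acid, also fell with triadimefon. Phyh read 2.17, 2.31 and 2.40 with propiconazole, 2.73, 2.51 and 2.57 with myclobutanil, 2.60, 2.56 and 2.47 with triadimefon, and 3.15, 2.96 and 3.04 in DMSO. All triazole arrays lay below all DMSO arrays, and those of propiconazole were the lowest. The changes were -0.76 (SE 0.119, adjusted p = 0.000106), -0.44 (adjusted p = 0.0678, and 0.00302 with the block) and -0.51 (adjusted p = 0.0246), and a second Phyh probe set fell by 0.56 with propiconazole (adjusted p = 0.000237).

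Abcd3, a transporter of the peroxisomal membrane, read 1.20, 1.26 and 1.24 with propiconazole, against 1.68, 1.62 and 1.40 in DMSO (change -0.33, SE 0.0765, adjusted p = 0.00465). Crot, which makes carnitine esters of shortened chains for export to mitochondria, read 0.69, 1.22 and 0.92 with propiconazole, against 1.27, 1.55 and 1.47 in DMSO (change -0.49, SE 0.136, adjusted p = 0.0178). Pex11a, a protein of peroxisome division, read 1.30, 1.32 and 1.22 with propiconazole, against 1.82, 1.59 and 1.63 in DMSO (change -0.40, SE 0.119, adjusted p = 0.0275). Crot's second probe set was also called, at -0.36 (adjusted p = 0.0282 in the fit on probe sets), and that of Pex11a was not, at -0.28 (adjusted p = 0.0793). For these 3 called genes the groups did not overlap, although the highest Crot array with propiconazole lay within 0.1 of the lowest in DMSO. The share of all genes without overlap was not counted. With myclobutanil and triadimefon none of the 3 was called without the block, and with it Crot was called for both.

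Some of these counts rested on few arrays. For propiconazole at 100 uM the members called were 26 in the fit described, 10 on the values as deposited, 11 after median centring, 20 with only the 2 groups fitted, and 15 without the Rs304 arrays. Of the 26, Acadvl, Hadh, Eci1, Decr1, Acaa2, Etfdh, Acat1 and Ehhadh were called under each of 15 alternatives. For myclobutanil the 9 calls were 0 on the values as deposited, after median centring and with 2 groups fitted, 4 without Rs293, 2 without Rs304, 3 without its own Rs293 array, and 5, 4 and 4 once the DMSO array of Rs256, of Rs293 or of Rs304 was dropped. For triadimefon the 6 calls were 0 on the values as deposited, after median centring and without Rs304, 1 (Etfdh) with 2 groups fitted, 3 without any 1 of its own arrays, and 3 without the DMSO array of Rs293 or that of Rs304.

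Marker lists and RNA quality measures also differed between the 100 uM arrays and DMSO. The 3′ minus 5′ difference of the Actb control probe sets, a measure of RNA integrity, was 0.57 to 0.725 with propiconazole, 0.61 to 0.834 with myclobutanil, 0.738 to 0.912 with triadimefon and 0.744 to 0.81 in DMSO. That of Gapdh overlapped DMSO with each triazole, at 0.08 to 0.263 with propiconazole, 0.135 to 0.24 with myclobutanil, 0.218 to 0.286 with triadimefon and 0.148 to 0.251 in DMSO. The mean of the 16 tested hepatocyte markers was 2.76 to 2.88 with propiconazole, 2.80 to 2.95 with myclobutanil, 2.77 to 2.94 with triadimefon and 2.89 to 3.03 in DMSO, lower than DMSO in all 3 codes with each triazole. Propiconazole lowered 3 of them (Ambp, Apoh and Cyp2c11), triadimefon 2 (Ambp and Apoh) and myclobutanil 0 (limma; 3 lower at an unadjusted p under 0.05). Of 7 tested macrophage markers Cd68 rose by 0.80 with propiconazole. The list's mean level was 0.488 to 0.654 with propiconazole, 0.363 to 0.696 with myclobutanil, 0.369 to 0.681 with triadimefon and 0.308 to 0.61 in DMSO, higher than DMSO in all 3 codes with each triazole. In each of these groups, DMSO included, the Rs256 array had the highest macrophage mean. Of 4 tested cholangiocyte markers Onecut1, which hepatocytes also express, fell by 0.82 with propiconazole. The list's mean was 0.465 to 0.618 with propiconazole, 0.517 to 0.664 with myclobutanil, 0.579 to 0.638 with triadimefon and 0.642 to 0.979 in DMSO, lower than DMSO in all 3 codes with each triazole. The macrophage and cholangiocyte means include Cd68 and Onecut1, so with propiconazole they do not show a shift of the other listed markers. With propiconazole stellate markers had 0 of 8 called (limma; 1 higher at an unadjusted p under 0.05), with list means of 0.279 to 0.386 and 0.314 to 0.526 in DMSO. Endothelial markers had 0 of 2 called (limma; 0 at an unadjusted p under 0.05), with means of -0.11 to 0.414 and -0.14 to 0.158 in DMSO. The highest endothelial mean was again that of Rs256, with propiconazole and in DMSO. The part of these measures in the members' falls was not tested. In such cultures fewer hepatocytes and less RNA per hepatocyte cannot be told apart.

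Across doses, members were called lower at 100 uM alone unless the code was a block. The group mean fell at each dose step for 24 of 34 members with propiconazole, 25 with myclobutanil and 30 with triadimefon, and for 20.1%, 28.9% and 21.4% of all genes. At 10 uM the members' median changes were -0.11 with propiconazole, -0.07 with myclobutanil and -0.11 with triadimefon, and at 30 uM they were -0.19, -0.15 and -0.18. limma called 0 members at these doses. Without the block the spread between codes counts as error, so 0 calls do not show a lack of change. At an unadjusted p under 0.05 the count lower was 4 for propiconazole, 0 for myclobutanil and 2 for triadimefon at 10 uM, and 12, 8 and 14 at 30 uM. The shares of all genes at an unadjusted p under 0.05, in either direction, were 0.944%, 0.2% and 1.24% at 10 uM and 6%, 1.14% and 4.84% at 30 uM. After adjustment, of all genes 0.00953% were called for propiconazole at 10 uM and none were for the others, and at 30 uM the shares were 0.0381%, 0.00953% and 0.0286%. With the block 6 members were called lower for propiconazole at 30 uM (Acadm, Eci1, Decr1, Acaa2, Acat1 and Acot2) and 5 for triadimefon (the same without Acadm), against 0.867% and 0.439% of all genes, and 0 for the other groups at 10 or 30 uM.

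The slope on log10 dose was negative and called for 17 members with propiconazole (3.72% of all genes were called with a negative slope, and 8.73% in either direction), for 4 with myclobutanil (0.105% and 0.248%) and for 0 with triadimefon (0.00953% and 0.0763%). At an unadjusted p under 0.05 limma gave triadimefon 9 negative and 1 positive slopes. The share of all genes at that threshold is not given here. With the block the slope was called for 27, 14 and 6, where 11.5%, 3.07% and 1.39% of all genes were called with a negative slope and 24.8%, 6.63% and 2.93% in either direction. Per 10-fold dose Eci1 changed by -1.29 with propiconazole (SE 0.147, adjusted p = 2.6e-06) and by -0.75 with myclobutanil (adjusted p = 0.0183), and Hadh by -0.74 (adjusted p = 6.84e-07) and -0.39 (adjusted p = 0.0193). Acaa2 and Acadl were the other members called for myclobutanil. Eci1 shows the shape: with propiconazole it stood 0.26 below DMSO at 10 uM, 0.51 below at 30 uM and 1.54 below at 100 uM. Hsd17b4 lay between -0.03 and 0.01 from DMSO at 10 and 30 uM of any triazole. The propiconazole count was 10 without Rs304, 7 as deposited and 6 after median centring. For myclobutanil it was 0 without Rs293, without Rs304 and without its 10 uM array of Rs304, 1 without its 100 uM array of Rs256 or that of Rs293, and 0 as deposited, after median centring and with its 3 doses alone fitted.

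**Figure D3:**
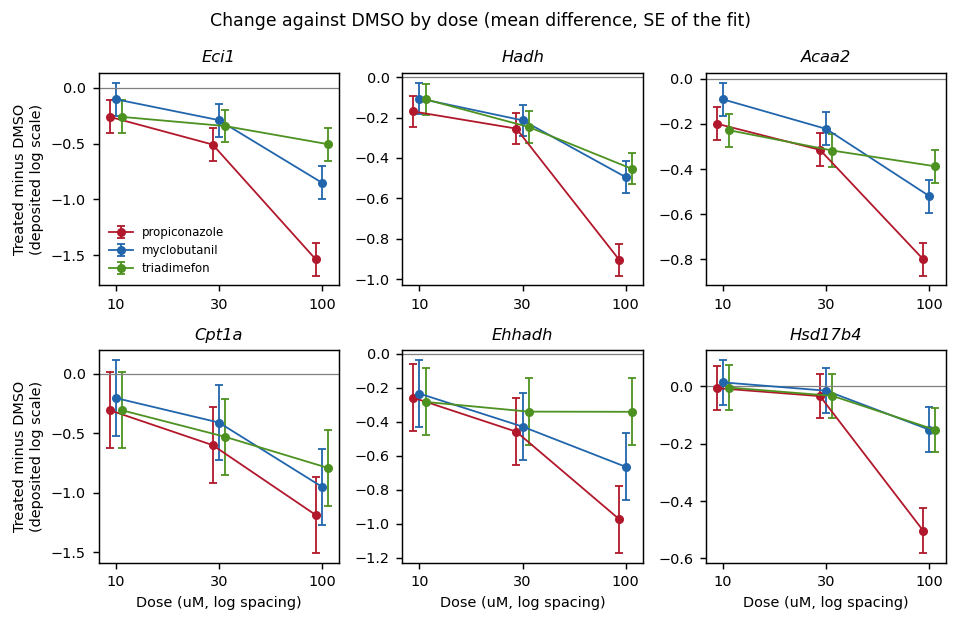
Change against DMSO (units of the deposited log scale, mean difference with the SE of the fit, n = 3 arrays a group) by dose on a log axis for 6 members and 3 triazoles. Eci1 with propiconazole reaches -1.54 at 100 uM, and Hsd17b4 lies between -0.03 and 0.01 at the lower doses of every triazole.

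Set against each other at 100 uM, propiconazole gave lower values than myclobutanil for 4 members (0.372% of all genes were called lower, and 0.744% in either direction) and lower than triadimefon for 7 (0.238% and 0.505%). No member was higher. Hadh, Eci1 and Hsd17b4 were in both sets: against myclobutanil they differed by -0.41 (SE 0.0775, adjusted p = 0.00837), -0.69 (SE 0.147, adjusted p = 0.023) and -0.35 (SE 0.0779, adjusted p = 0.0279). Against triadimefon the same genes differed by -0.45 (adjusted p = 0.00434), -1.03 (adjusted p = 0.000755) and -0.35 (adjusted p = 0.0365). Eci2 was the 4th call against myclobutanil at -0.36 (adjusted p = 0.05, below the threshold before rounding), and Acadl, Decr1, Acaa2 and Cpt2 were the other calls against triadimefon, at -0.42, -0.65, -0.41 and -0.32. With the block 14 members were called lower in each of these comparisons (3.22% and 2.06% of all genes).

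Between myclobutanil and triadimefon limma called 0 members (1 lower at an unadjusted p under 0.05, 0 with the block; 0% of all genes were called). Hadh differed by -0.04 (95% interval -0.20 to 0.12), Acat1 by 0.00 (-0.22 to 0.22) and Hsd17b4 by 0.00 (-0.16 to 0.16), and Eci1 by -0.35 (-0.65 to -0.04, adjusted p = 1). For Cpt1a the interval was wide, at -0.16 (-0.82 to 0.50), and differences of that size could not be resolved. At 10 and 30 uM no pair of triazoles differed in any member with limma (0 at an unadjusted p under 0.05, 0 with the block, and 0% of all genes called). The 4 calls against myclobutanil were 0 on the values as deposited, after median centring, with 2 groups fitted, without Rs293, without Rs304, without the propiconazole array of Rs256 and without the myclobutanil array of Rs293. They were 2 without the propiconazole array of Rs293 and 1 without the myclobutanil array of Rs304. The 7 against triadimefon were 0 as deposited, after median centring, without Rs293 and without Rs304. With 2 groups fitted 2 members were called, and of the 7 only Eci1 was kept. Without single arrays the members called were 3, 4 and 3 for propiconazole of Rs256, Rs293 and Rs304, and 2 and 3 for triadimefon of Rs293 and Rs304.

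**Figure D4:**
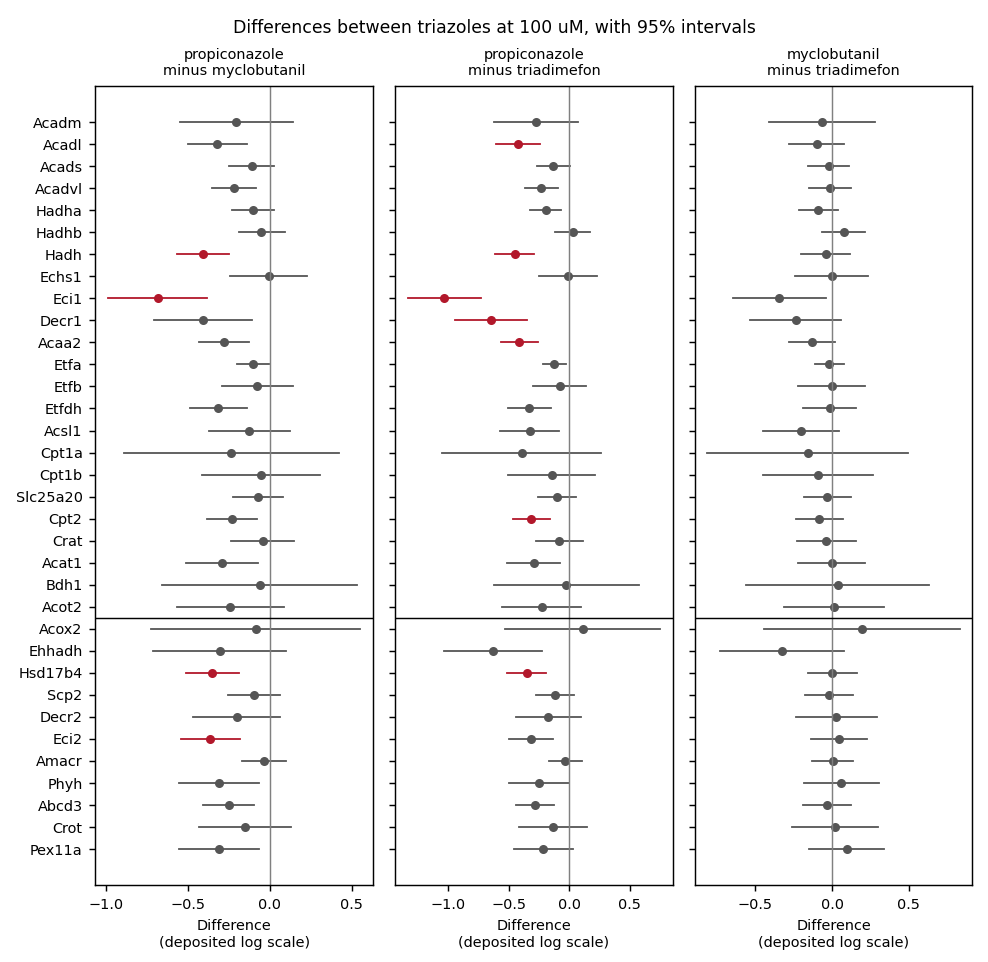
Differences between triazoles at 100 uM for the 34 tested members, first named minus second named, as mean difference with its 95% interval in units of the deposited log scale (mitochondrial above the line, peroxisomal below). Red marks the 4 and 7 members called between propiconazole and the other triazoles, and no interval between myclobutanil and triadimefon is red.

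Phenobarbital and PCN moved no member past the threshold. With limma 0 members were called for either (5 and 6 lower at an unadjusted p under 0.05, 0 and 0 with the block), and 0.00953% of all genes were called for each. Of all genes 0.915% with phenobarbital and 1.78% with PCN lay at an unadjusted p under 0.05 in either direction. The members' medians were -0.12 with phenobarbital and -0.13 with PCN. Ehhadh read 0.81, 0.29 and 1.27 with phenobarbital, 1.07 and 0.50 with PCN (Rs293 and Rs304), and 0.99, 1.19 and 1.43 in DMSO. The phenobarbital array of Rs293 and the PCN array of Rs304 were the low ones, and both groups overlapped DMSO. Its changes were -0.41 (95% interval -0.82 to -0.01) and -0.42 with adjusted p = 1 for both. Acat1 stood at 1.57, 1.17 and 1.57 with phenobarbital and 1.48 and 1.22 with PCN, all below its DMSO arrays, with uncalled changes of -0.23 and -0.31 (adjusted p = 1 for both).

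Another 48 genes were listed by their known role, also with earlier results of these data known, and 38 were tested. With propiconazole at 100 uM 11 fell and 3 rose (median -0.14), with myclobutanil 2 fell and with triadimefon 3 fell. Of all genes 5.6% were called lower and 6.37% higher with propiconazole, so the share that rose was near that of all genes, and 0.572% and 0.963% were called lower with myclobutanil and triadimefon. Among 13 other peroxisomal genes 5 fell with propiconazole. The first 4 by p were the acyl-CoA dehydrogenase Acad11, which fell by 0.89 (adjusted p = 1.4e-06), the thioesterase Acot4, by 0.85 (adjusted p = 2.19e-06), Slc27a2, which activates very long chains, by 1.39 (SE 0.193, adjusted p = 2.53e-05), and the enoyl-CoA reductase Pecr, by 0.62. Slc27a2 and Acot4 also fell with myclobutanil, by 0.80 and 0.54, and with triadimefon, by 0.84 and 0.59, and Acad11 fell with triadimefon by 0.40.

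Among 12 other mitochondrial genes 4 fell with propiconazole, led by Hsd17b10, a short-chain dehydrogenase, at -0.41 (adjusted p = 0.00151), Ech1, a dienoyl-CoA isomerase, at -1.05 (adjusted p = 0.00314) and Mlycd, which breaks down malonyl-CoA, the inhibitor of Cpt1a, at -0.36 (adjusted p = 0.00322), and the thioesterase Acot9 rose by 0.25. Of 13 genes of fatty acid activation and ketone use 2 fell and 2 rose: Acot12, a cytosolic acetyl-CoA hydrolase, fell by 0.57 and the thioesterase Acot7 by 0.20, while Oxct1, which lets tissues other than liver burn ketone bodies, rose by 0.83 (SE 0.196, adjusted p = 0.00559) and Aacs, which sends acetoacetate to lipid synthesis, by 0.48 (adjusted p = 0.00375).

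**Figure D5:**
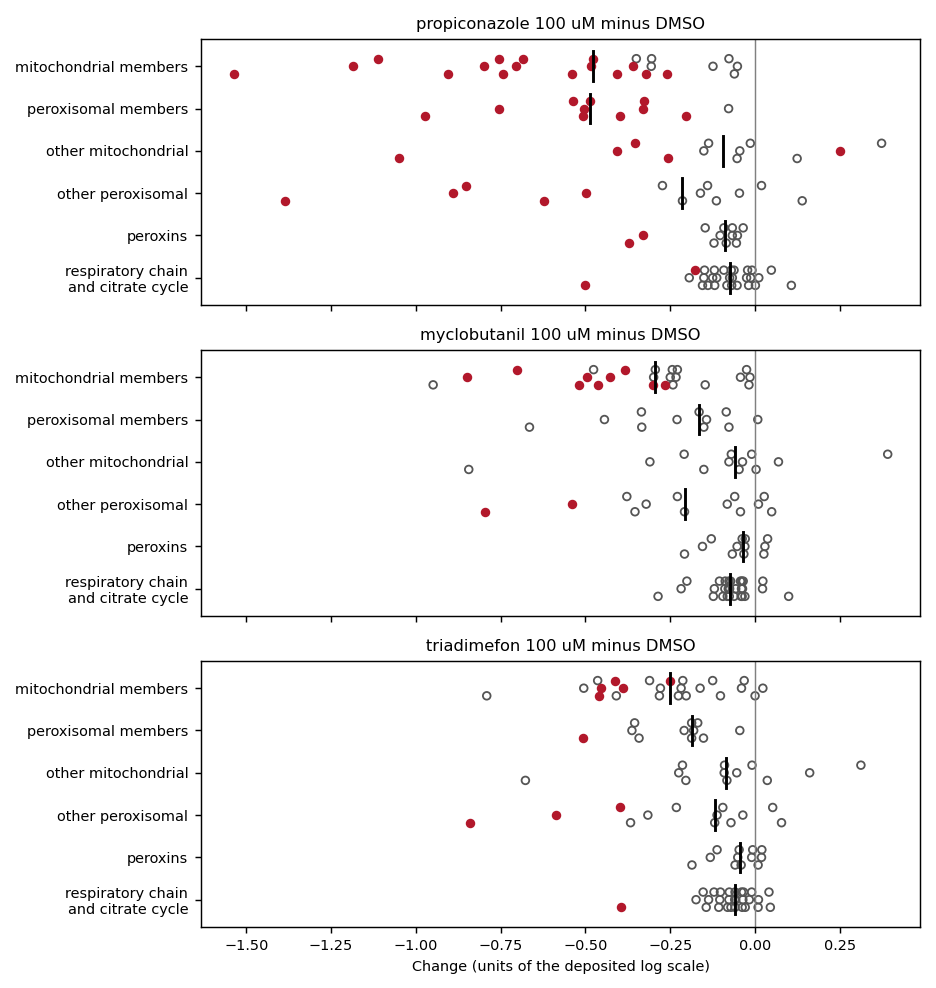
Change against DMSO at 100 uM (units of the deposited log scale) for each tested gene of 6 lists, with red points for calls and a black bar for the list's median, in 1 panel per triazole. With propiconazole the medians of mitochondrial and peroxisomal members are -0.48 and -0.49, and those of peroxins and of the respiratory chain and citrate cycle are -0.09 and -0.07.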

How the data were processed

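Total RNA of 35 hepatocyte cultures was labelled with biotin and hybridized to Affymetrix rat expression arrays, per the labels' protocols. The deposited values are a score on a log-like scale, whose base, probe summary and normalization are not given in the sources used here. Precision is limited by the number of arrays, 3 in most groups. Before testing, the arrays were quantile-normalized (limma 3.58.1, R 4.3.3). Probe sets were named from the platform's annotation: 20826 named 1 gene, 436 several and 9780 none. For each gene the brightest, on average, of the probe sets that name it alone was used, and it was tested if above the array median in at least 2 of 35 arrays (10490 of 14217 genes).

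lmFit and eBayes ran over all 35 arrays with 1 mean per group and no covariate, for 11 comparisons with DMSO, 9 pairs of triazoles at 1 dose and 3 slopes on log10 dose. Tests were two-sided, and p-values were adjusted by Benjamini and Hochberg within each comparison. Comparisons with DMSO share its 3 arrays. The code in each label may pair arrays across groups. After group means were removed, same-code arrays of a treatment and DMSO correlated at 0.277 or more in all 32 pairs. The median was 0.634 over all 187 same-code pairs and -0.355 for different codes. Blocked values therefore stand beside many results they change, but not beside all. Where no block is named, a call or its lack refers to the fit without it. No 2 arrays held identical values.

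Array values are printed in full for members called at 100 uM, up to 4 per role by adjusted p. Hadha and Hadhb were added after their values were seen, because they form 1 protein, as were Bdh1 and the arrays of phenobarbital and PCN. Other pathway genes are named up to 4 per list. Members and lists were chosen with earlier results of these data known. The fit was tested on simulated data, and alternatives covered normalization, filter, feature, groups fitted, block and left-out arrays.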

Additional observations from a re-analysis of the deposited data

How the results depend on the processing

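The number of arrays limits every value, and the unknown log base leaves changes without folds. No member called changed direction under any alternative run. Member counts without 1 code or 1 array ranged from 15 to 25 for propiconazole at 100 uM (26 with none left out), 2 to 9 for myclobutanil (9), 0 to 6 for triadimefon (6), 0 to 3 for propiconazole against myclobutanil (4) and 0 to 6 against triadimefon (7), 10 to 18 for the propiconazole slope (17) and 0 to 5 for the myclobutanil slope (4), and were 0 in all other comparisons. With the code as a replicate block, which pairs the arrays, counts were 22 for myclobutanil and 20 for triadimefon at 100 uM, 6 for propiconazole and 5 for triadimefon at 30 uM, 14 for propiconazole against either triazole, 27, 14 and 6 for the slopes of propiconazole, myclobutanil and triadimefon (11.5%, 3.07% and 1.39% of all genes), and 30 for propiconazole at 100 uM. It removed no call. On the values as deposited 10 members were called for propiconazole at 100 uM and 7 for its slope, after centring each array on its median 11 and 6, and in both settings 0 in every other comparison. With only the groups compared fitted, fewer arrays estimate the spread, and counts were 20 for propiconazole, 0 for myclobutanil and 1 for triadimefon at 100 uM, 0 and 2 for propiconazole against myclobutanil and triadimefon, and 16 and 0 for the slopes of propiconazole and myclobutanil. Dropping the filter or testing each probe set changed no count by more than 1.5 times. Why normalization moved the counts was not tested.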

Other observations

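Of 28 tested genes of the respiratory chain and citrate cycle, which take up what beta-oxidation yields, propiconazole lowered Idh2 by 0.50 (SE 0.0837, adjusted p = 0.000197) and Atp5f1b by 0.18 (adjusted p = 0.00604), with a list median of -0.07. These 2 of 28 are a share near the 5.6% of all genes called lower. Triadimefon lowered Idh2 by 0.40 (adjusted p = 0.0129). Of 12 tested peroxins, which build peroxisomes, propiconazole lowered Pex19 by 0.37 (adjusted p = 0.000512) and Pex13 by 0.33 (adjusted p = 0.00674), with a median of -0.09, 2 of 12 beside the same 5.6%. The genes named here were chosen because they were called.

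Of 14 nuclear receptors and cofactors linked to the pathway, limma called 0 for any triazole at 100 uM (2, 1 and 1 at an unadjusted p under 0.05 for propiconazole, myclobutanil and triadimefon, and 4, 1 and 1 with the block). Ppara, which encodes PPARalpha, changed by 0.12 with propiconazole (SE 0.0722, adjusted p = 0.337), and Ppargc1a, a coactivator of oxidative genes, by -0.03 (SE 0.122, adjusted p = 0.927). With the block Ppard and Pparg were called higher and Lpin1 and the receptor Nr1i3 lower with propiconazole, 4 of 14 and so about the 29.3% of all genes called in either direction with the block, and Ppard was also called higher with the other two triazoles (9.92% and 11.8% of all genes).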
